A study of Homo sapiens
Mus musculus and Homo sapiens with 21 samples.

Results

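The genes described here encode 36 aminoacyl-tRNA synthetases of the human lung adenocarcinoma line H2030-BrM3, 20 of them cytosolic enzymes and 16 mitochondrial enzymes whose symbols end in 2. They were listed by gene symbol, with earlier results of these data known, out of 34058 genes in the human expression table. Symbols are those of the table, in which newer names such as AARS1 stand without the 1. All 36 were found and all 36 passed the filter on low values, which asked for a level of at least 1 in at least 3 libraries. The level is the deposited RPKM (reads per kilobase and per 1000000 reads) rescaled so that each library sums to 1000000.

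The study asked how the transcriptome of these cells differs between growth environments. Total RNA was sequenced from 3 forebrains with metastases (FBMet), 3 hindbrains with metastases (HBMet), 4 subcutaneous tumours (SQ) and 3 monolayer cultures (2D). H2030-BrM3 is a brain-seeking derivative of H2030, so all 13 libraries hold the RNA of 1 line. Metastases and subcutaneous tumours grew in athymic nu/nu mice, which lack mature T cells and were injected at 5 to 6 weeks of age. The brain metastases followed injection into the heart, and the subcutaneous tumours followed injection under the skin in a mixture with 50% growth-factor-reduced Matrigel. Tumours were cut out by eye with adjoining stroma and frozen, while monolayers grew for at least 3 days without disturbance. The cancer cells were not separated from host cells, and the human table holds the reads assigned to human genes. Nothing in the labels says whether the libraries of a group came from separate animals or cultures, so p-values measure the spread between these libraries, which may be technical. Nor do they say whether a forebrain and a hindbrain library of one number came from the same mouse, so the 6 metastasis libraries may stand for fewer animals.

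Each aminoacyl-tRNA synthetase joins an amino acid to the tRNAs that carry it to the ribosome. Animal cells keep one set for translation in the cytosol and another, also encoded in the nucleus, for the few proteins made inside mitochondria. When amino acids run short, uncharged tRNA activates the kinase GCN2, eIF2 is phosphorylated and the transcription factor ATF4 is translated, and many cytosolic synthetase genes are known ATF4 targets. ATF4 pairs with C/EBP proteins on a composite element read as TGATGNAA.

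That element was searched on both strands of the window from 250 bases before to 50 bases after the start of each gene's canonical transcript (GENCODE 44 on hg38), and no other motif was searched. The letters were found in 8 of 20 cytosolic promoters (40.0%), in 1 of 16 mitochondrial promoters (6.25%) and in 501 of the 20046 promoters of all protein-coding genes (2.5%). A match describes these letters only and is neither a site nor a cause. All but that of NARS are printed, because the genes that hold them include those with the greatest differences between environments. Each is a stretch of 30 bases read 5′ to 3′ on the strand that carries the motif, with the motif in capitals.
GARS: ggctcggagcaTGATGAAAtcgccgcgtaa
YARS: ccgagcccagcTGATGCAAcctggctggac
CARS: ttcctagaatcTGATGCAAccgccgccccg
AARS: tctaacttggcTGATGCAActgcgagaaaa
IARS: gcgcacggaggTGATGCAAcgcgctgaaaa
TARS: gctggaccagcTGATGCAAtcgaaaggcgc
MARS: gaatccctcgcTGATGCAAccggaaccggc
YARS2: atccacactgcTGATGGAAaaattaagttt

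On hg38, the stretches lie at chr7:30594834-30594863 for GARS, chr1:32817337-32817366 for YARS, chr5:33440956-33440985 for TARS, chr12:57488053-57488082 for MARS and chr12:32756076-32756105 for YARS2, all read on the minus strand. Those of CARS (chr11:3057407-3057436), AARS (chr16:70289675-70289704) and IARS (chr9:92293692-92293721) are read on the plus strand. Counting the first transcribed base as 1, the motif began at −33 in GARS, −13 in IARS, −4 in MARS, −2 in CARS, 3 in TARS, 4 in YARS and 15 in NARS, so that 7 of the 8 cytosolic matches lay close to the transcription start. The matches of AARS and YARS2 began farther upstream, at −187 and −197. In 7 of the 8 cytosolic genes the letters read TGATGCAA, and GARS had TGATGAAA.

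Reads assigned to human genes numbered 3579907 to 6897852 in the 6 metastasis libraries, 27253282 to 48152857 in SQ and 29579879 to 49599168 in 2D, so the metastases were the shallowest. They also held 52358082 to 86139353 mouse reads. The epithelial markers KRT8, KRT18, EPCAM and MUC1 were present in all groups, and the summed level of the 7 epithelial markers was 1690 to 2351 in the metastases, 959.5 to 1109 in SQ and 365.5 to 402.4 in 2D. KRT19 was at 0 in FBMet, SQ and 2D. Of the 7 epithelial markers, 6 passed the filter on low values. In SQ against 2D, 5 were higher and 1 lower (limma, adjusted p under 0.05), against 21.5% and 30.9% of all genes. In metastases against 2D, 5 were again higher and 1 lower, against 21.9% and 21%. In metastases against SQ, 3 were higher and 2 lower, against 31.2% and 18.8%. Host-cell markers (12 of 15 in the table) summed to 251.7 to 304.7 in the metastases, 259.2 to 286.6 in SQ and 257.1 to 261.5 in 2D, mostly MBP and COL1A1, with AIF1, CLDN5 and PTPRC at 0 in FBMet and HBMet. Single markers differed more than these sums. Of the 6 that passed the filter, 4 were higher and 1 lower in metastases than in 2D (limma, adjusted p under 0.05). The shares of all genes were 21.9% and 21%. Those 4 were at least 2-fold higher. In metastases against SQ, 3 were higher and 1 lower, against 31.2% and 18.8% of all genes. In SQ against 2D, 2 were higher and 1 lower, against 21.5% and 30.9%. Whether these reads came from host cells was not tested. At the rate seen in tumour-free brain, mouse RNA would give 6.41% of the metastasis reads of DARS, 3.68% of AARS, 1.69% of EPRS, 0.50% of FARS2 and at most 0.18% of any other member.

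Cytosolic synthetase transcripts were lower in tumours than in culture, and by more under the skin than in the brain. The 20 cytosolic levels summed to 4543 ± 242 in brain metastases (SD, n = 6), 3412 ± 180 in SQ (n = 4) and 6284 ± 48.7 in 2D (n = 3). No library of one of these groups fell within the range of another, with 4291 to 4875 in brain metastases, 3267 to 3667 in SQ and 6249 to 6339.5 in 2D. Set against 2D, the cytosolic sum was 72.3% in brain metastases and 54.3% in SQ. In bulk RNA, a lower level in all cancer cells and a lower level in only part of them cannot be told apart.

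The mitochondrial sums differed less. The 16 levels summed to 889 ± 22.0 in brain metastases, 817 ± 29.9 in SQ and 1002 ± 8.47 in 2D, which is 88.8% of 2D in brain metastases and 81.6% in SQ. The 2D libraries stood above all the others (993 to 1009.9), while the lowest metastasis (860.3) lay just under the highest SQ library (861.1). The cytosolic sum over the mitochondrial sum was 5.11 ± 0.286 in brain metastases, 4.17 ± 0.0819 in SQ and 6.27 ± 0.0630 in 2D. With canonical transcript lengths as divisor, chosen after the data were seen, the ratio was 5.51 ± 0.256 in brain metastases, 4.71 ± 0.117 in SQ and 7.0 ± 0.0478 in 2D, again without overlap.

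**Figure D1:**
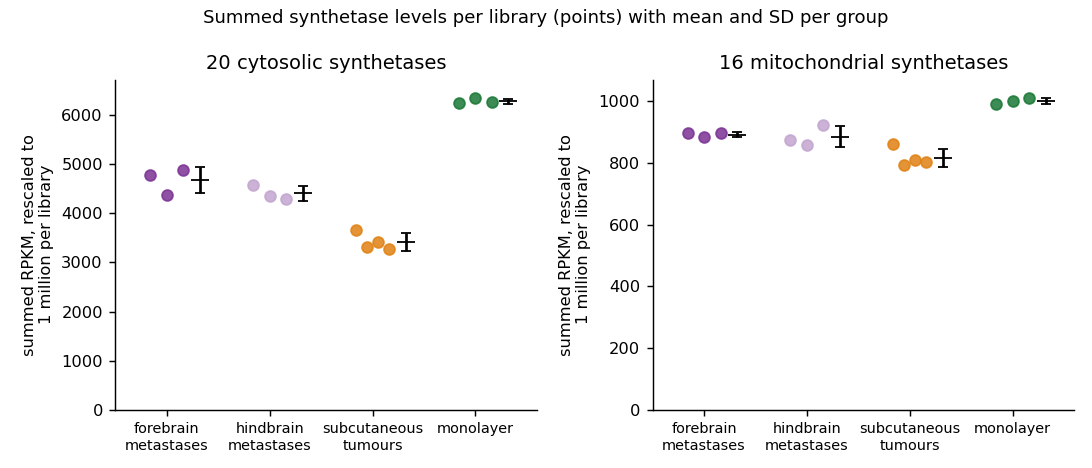
Summed level (RPKM rescaled to 1000000 per library) of the 20 cytosolic and the 16 mitochondrial synthetases in each library, with mean and SD per group. The 6 metastases lie between 4291 and 4875 in the cytosolic panel, above the 4 SQ tumours and below the 3 monolayers.

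Subcutaneous tumours against monolayer gave the clearest contrast. Of the 20 cytosolic genes, 18 were lower in SQ and 0 higher (limma on log2(level + 1), adjusted p under 0.05 over all 14557 genes tested), where 30.9% of all genes were called lower and 21.5% higher. Of these, 10 were at least 2-fold lower. The median log2 difference of the class was −0.97, from −1.88 in GARS to −0.11 in HARS, while the median of all genes was −0.05. In all 20 every SQ library lay under every 2D library, against 38.4% of all genes. At an unadjusted p under 0.05 the count of cytosolic genes higher was also 0, as it was with voom.

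Of the 16 mitochondrial genes, 5 were lower in SQ (YARS2, IARS2, TARS2, WARS2, LARS2), 1 was higher (SARS2) and 10 were not called, where 52.4% of all genes were called in either direction. Their median log2 difference was −0.13. The groups did not overlap in 8 of 16, against 67.8% of all genes, 6 of them lower and 2 higher, against 29.5% of all genes that were higher without overlap. The split of mitochondrial calls moved with the scaling, to 2 higher and 5 lower under median-of-ratios, 2 and 3 under nuclear-gene and 2 and 4 under quantile scaling, HARS2 being the added one. Library weights gave 2 higher and 9 lower, 11 of 16 in all, against the 6 reported. Nuclear-gene scaling, which leaves genes of the mitochondrial genome out of the total, shifted the median of all genes by 0.12 and their calls to 4158 higher and 3296 lower, against 3136 and 4499. Relative to the median of all genes, the cytosolic median was −0.91 as reported and −0.90 with that scaling, and the mitochondrial median −0.07 with both.

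Brain metastases against monolayer showed the same division with smaller differences. Among cytosolic genes, 13 were lower in metastases and 0 higher (limma), against 21% of all genes called lower and 21.9% higher. The median log2 difference was −0.32, from −1.15 in GARS to 0.11 in DARS, beside 0.01 for all genes. No cytosolic gene was higher at an unadjusted p under 0.05 (0) or with voom (0). Mitochondrial genes went both ways, 5 higher (FARS2, CARS2, MARS2, VARS2, EARS2), 3 lower (IARS2, TARS2, NARS2) and 8 not called, with a median of −0.01 and 42.9% of all genes called. Without overlap between metastases and 2D were 14 of 20 cytosolic and 7 of 16 mitochondrial genes, against 38.6% of all genes.

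Brain metastases against subcutaneous tumours put most cytosolic genes higher in the brain. The counts were 17 higher and 0 lower (limma), where 31.2% of all genes were called higher and 18.8% lower, with 0 lower at an unadjusted p under 0.05 and with voom. Their median log2 difference was 0.42, from −0.07 in HARS to 0.75 in TARS, beside 0.05 for all genes. Of the mitochondrial genes, 8 were higher, 2 lower (SARS2, HARS2) and 6 not called, with a median of 0.24, and 50% of all genes were called. Metastases and SQ did not overlap in 15 cytosolic and 6 mitochondrial genes, against 31.7% of all genes. For all genes the calls were 4537 higher and 2739 lower, but 3550 and 3618 under median-of-ratios, 3478 and 3733 under nuclear-gene and 3655 and 3524 under quantile scaling. The 3 comparisons share libraries, so their counts are not separate evidence. Under median-of-ratios, nuclear-gene and quantile scaling HARS was called lower in metastases than in SQ (adjusted p of 0.0298, 0.017 and 0.0121 in limma).

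**Figure D2:**
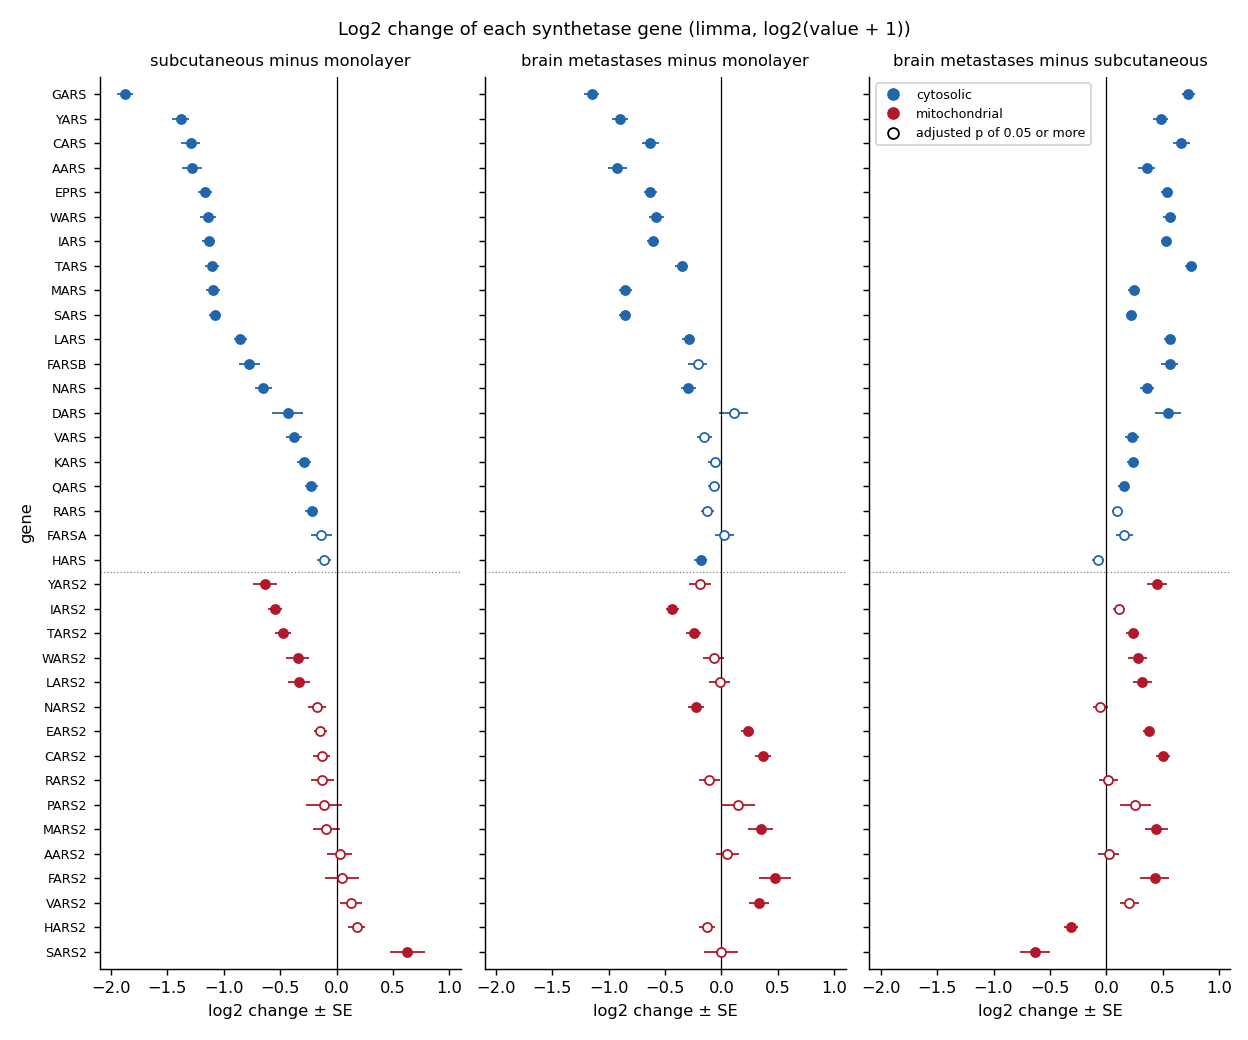
Log2 difference ± SE of each of the 36 genes in SQ against 2D, brain metastases against 2D and brain metastases against SQ; open points have an adjusted p of 0.05 or more. Cytosolic genes lie left of 0 in the first panel, from −1.88 to −0.11, and mitochondrial genes lie on both sides, from −0.63 to 0.63.

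GARS, glycyl-tRNA synthetase, differed most in both comparisons with 2D; this gene makes both the cytosolic and the mitochondrial enzyme from alternative starts. It lies on chromosome 7 from 30580533 to 30634033 (hg38, plus strand). Its level was 220.2, 236 and 266 in brain metastases (lowest, median and highest of 6), 163, 147, 139 and 129 in the 4 SQ tumours and 531, 538 and 528 in the 3 monolayers. The 3 groups did not overlap. GARS was 3.68-fold lower in SQ than in 2D (log2 −1.88 ± 0.07 SE, adjusted p 1.43e-10 in limma) and 2.22-fold lower in metastases than in 2D (−1.15 ± 0.07, 8.49e-09). Metastases stood 1.66-fold above SQ (0.73 ± 0.06, 3.56e-07).

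KARS, lysyl-tRNA synthetase, also serves both compartments from one gene and moved little. Its level was 476, 530.2 and 559 in brain metastases (lowest, median and highest), 473, 417, 453 and 437 in SQ and 536, 555 and 541 in 2D. Metastases overlapped 2D and lay above all SQ tumours. KARS was 1.22-fold lower in SQ than in 2D (log2 −0.29 ± 0.06, adjusted p 0.00139 in limma) and 1.18-fold higher in metastases than in SQ (0.23 ± 0.05, 0.00222), and both calls were lost with quantile normalization (0.129 and 0.172). In metastases against 2D its difference was −0.06 ± 0.06 (adjusted p 0.46).

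YARS, tyrosyl-tRNA synthetase, stood at 99.8, 109 and 128 in brain metastases (lowest, median and highest), 87.1, 76.6, 78.3 and 75.3 in SQ and 205, 209 and 210.3 in 2D. The groups kept apart. It was 2.61-fold lower in SQ than in 2D (log2 −1.38 ± 0.08, adjusted p 8.25e-09 in limma) and 1.87-fold lower in metastases (−0.90 ± 0.07, 3.02e-07). CARS, cysteinyl-tRNA synthetase, had low levels of 7.14, 8.03 and 9.28 in brain metastases, 4.99, 4.56, 4.56 and 4.87 in SQ and 13.2, 13.1 and 13 in 2D. Here too no library crossed into another group. CARS was 2.45-fold lower in SQ than in 2D (−1.29 ± 0.09, 3.62e-08), 1.55-fold lower in metastases than in 2D (−0.63 ± 0.08, 2.09e-05) and 1.59-fold higher in metastases than in SQ (0.66 ± 0.07, 4.71e-06).

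AARS, alanyl-tRNA synthetase, had levels of 335, 366 and 434 in brain metastases (lowest, median and highest), 322, 256, 303 and 289 in SQ and 689, 722 and 716 in 2D. The 3 groups did not overlap, although the lowest metastasis came close to the highest SQ tumour. It was 2.43-fold lower in SQ than in 2D (log2 −1.28 ± 0.09, adjusted p 6.41e-08 in limma) and 1.90-fold lower in metastases (−0.92 ± 0.08, 9.48e-07). SARS, seryl-tRNA synthetase, stood at 59.2, 62.8 and 68.5 in brain metastases, 58.4, 52.5, 52.4 and 53.9 in SQ and 115, 117 and 114 in 2D. Both tumour groups were far under culture and close to each other. Its differences were −1.08 ± 0.06 in SQ against 2D (3.35e-09), −0.86 ± 0.05 in metastases against 2D (1.58e-08) and 0.22 ± 0.05 in metastases against SQ (0.00139).

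MARS, the methionyl enzyme, which also charges initiator tRNA, had levels of 216, 242 and 261 in brain metastases (lowest, median and highest), 208, 191, 203 and 201 in SQ and 413, 444 and 434 in 2D. As with SARS, brain and subcutaneous tumours lay near each other. It was 2.14-fold lower in SQ than in 2D (log2 −1.10 ± 0.06, adjusted p 8.74e-09 in limma) and 1.81-fold lower in metastases (−0.85 ± 0.06, 5.55e-08). IARS, isoleucyl-tRNA synthetase, stood at 355, 371 and 403 in brain metastases, 283, 263, 256 and 241 in SQ and 573, 579.7 and 564 in 2D, with no overlap. Its differences were −1.13 ± 0.06 in SQ against 2D (2.61e-09) and −0.60 ± 0.05 in metastases against 2D (6.59e-07).

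EPRS joins the glutamyl and prolyl enzymes in one protein. It stood at 178, 204 and 222 in brain metastases (lowest, median and highest), 151, 135, 141 and 129 in SQ and 316, 307 and 316 in 2D, with no overlap. EPRS was 2.25-fold lower in SQ than in 2D (log2 −1.17 ± 0.06, adjusted p 7e-09 in limma) and 1.55-fold lower in metastases (−0.63 ± 0.06, 1.54e-06). WARS, tryptophanyl-tRNA synthetase, is the family member known to be induced by interferon gamma. Its level was 255, 285 and 332 in brain metastases, 205, 200.3, 188 and 180.1 in SQ and 423, 430.3 and 426 in 2D. Again the groups were apart, and WARS was 2.20-fold lower in SQ than in 2D (−1.14 ± 0.07, 2.15e-08), 1.49-fold lower in metastases than in 2D (−0.58 ± 0.07, 8.66e-06) and 1.48-fold higher in metastases than in SQ (0.56 ± 0.06, 4.18e-06).

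TARS, threonyl-tRNA synthetase, showed the greatest difference of the family between brain and skin. It stood at 422, 441 and 461 in brain metastases (lowest, median and highest), 292, 249.5, 261 and 245 in SQ and 562, 556 and 569 in 2D. Metastases were 1.68-fold above SQ (log2 0.75 ± 0.05, adjusted p 7.21e-08 in limma) and 1.28-fold below 2D (−0.35 ± 0.06, 0.000191). LARS, leucyl-tRNA synthetase, known also as a leucine sensor for mTORC1, had levels of 376, 409 and 485 in brain metastases, 298, 269, 287 and 266 in SQ and 505, 505 and 507 in 2D. The metastases reached up towards the monolayers without touching them, and differed from SQ by 0.56 ± 0.05 (7.72e-07) and from 2D by −0.29 ± 0.06 (0.0007). FARSB, the beta subunit of the phenylalanyl enzyme, stood at 22.4, 24.0 and 26.7 in brain metastases, 17.7, 17.8, 14.8 and 14.3 in SQ and 28.3, 28.1 and 28 in 2D. It was 1.48-fold higher in metastases than in SQ (0.56 ± 0.08, 3.19e-05). Against 2D it was −0.21 ± 0.08, which missed the threshold (0.0535) and passed it in 10 of 26 alternatives.

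FARSA, the alpha subunit of the same enzyme, was called in none of these comparisons in the reported fit. It was lower in SQ than in 2D with only the groups compared, metastases averaged by number and library weights (adjusted p 0.0431, 0.0376 and 0.0397 in limma). It was higher in metastases than in SQ with that averaging (0.0201) and with voom (0.0381). Leaving out FBMet replicate 1 (0.0193) or HBMet replicate 2 (0.0483) gave the same call. Its levels of 49.8 to 65.8 in brain metastases, 49.1 to 54.3 in SQ and 54.9 to 58.6 in 2D lay close together. The 2 subunits of one enzyme thus had different values here, −0.13 ± 0.09 for FARSA and −0.77 ± 0.09 for FARSB in SQ against 2D. The difference between the 2 genes was not tested.

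**Figure D3:**
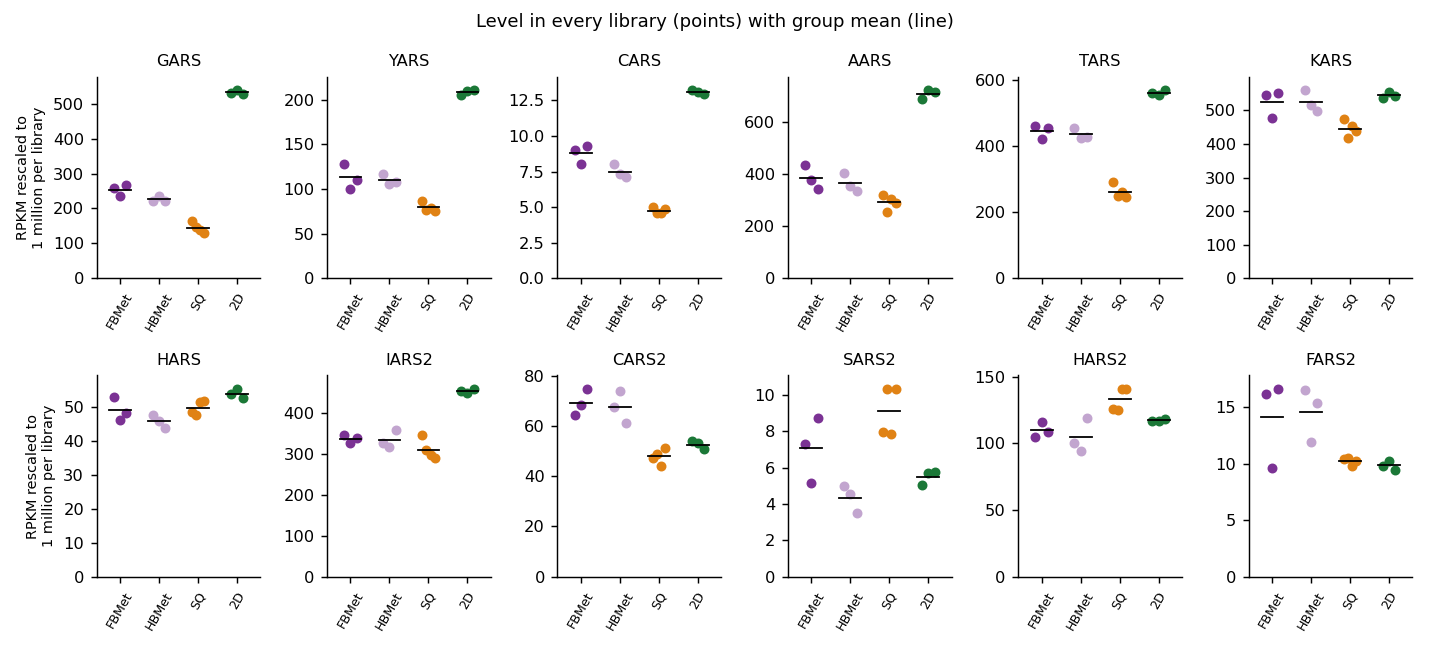
Level (RPKM rescaled to 1000000 per library) of 12 synthetase genes in every library of FBMet, HBMet, SQ and 2D, with the group mean as a line. GARS stands at 220.2 to 266 in the metastases, 129 to 163 in SQ and 528 to 538 in 2D, while KARS and HARS lie within a narrow band.

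Several cytosolic genes stayed within a narrow range. QARS, glutaminyl-tRNA synthetase, stood at 245, 296 and 321 in brain metastases (lowest, median and highest), 259, 255, 254 and 264 in SQ and 297, 314 and 294 in 2D. The metastases spanned both other groups. QARS was 1.17-fold lower in SQ than in 2D (log2 −0.22 ± 0.06, adjusted p 0.00475 in limma) and 1.11-fold higher in metastases than in SQ (0.15 ± 0.05, 0.0175). The SQ call was lost under nuclear-gene and quantile scaling (0.134 and 0.419), and the metastasis call under those and median-of-ratios scaling (0.309, 0.489 and 0.265).

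HARS, histidyl-tRNA synthetase, had the smallest difference of the cytosolic set in SQ against 2D, −0.11 ± 0.06 (adjusted p 0.148 in limma), and 0.01 with nuclear-gene scaling. Its levels were 43.7, 46.8 and 52.8 in brain metastases, 48.3, 47.5, 51.3 and 51.6 in SQ and 53.6, 55.3 and 52.7 in 2D. Most metastases lay under the monolayers and 1 reached them. HARS was 1.14-fold lower in metastases than in 2D (−0.18 ± 0.06, 0.0202), a call lost without 2D replicate 1 (0.0639) or without 2D replicate 2 (0.0962).

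The other cytosolic genes were NARS, DARS, VARS and RARS. NARS, the asparaginyl enzyme, averaged 246 ± 20.2 in brain metastases (SD, n = 6), 192 ± 13.2 in SQ (n = 4) and 301 ± 5.51 in 2D (n = 3), and all 3 differences were called by limma. DARS, the aspartyl enzyme, averaged 247 ± 45.8 in brain metastases, 168 ± 21.2 in SQ and 226 ± 0.199 in 2D. It was lower in SQ than in 2D (log2 −0.43 ± 0.14, adjusted p 0.0161), a call lost without SQ replicate 4 (0.0505), with no filter (0.0611), and under nuclear-gene (0.0728) or quantile scaling (0.0561). VARS, the valyl enzyme, and RARS, the arginyl enzyme, were lower in SQ than in 2D by 0.38 and 0.22 on the log2 scale, and the RARS call was lost under nuclear-gene and quantile scaling (0.163 and 0.282). Neither was called in metastases against 2D (0.0863 and 0.0836). Median-of-ratios scaling put both lower there (0.0488 and 0.0361), and VARS was also lower without FBMet replicate 3 (0.0333).

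Of the mitochondrial genes lower than in 2D, YARS2, the tyrosyl enzyme, had levels of 15.3, 16.8 and 18.2 in brain metastases (lowest, median and highest), 13.7, 9.90, 13.4 and 11.5 in SQ and 18.6, 19.6 and 19.3 in 2D. The SQ tumours were the lowest and the metastases sat just under culture. YARS2 was 1.55-fold lower in SQ than in 2D (log2 −0.63 ± 0.10, adjusted p 0.000136 in limma) and 1.36-fold higher in metastases than in SQ (0.45 ± 0.09, 0.0007). IARS2, the isoleucyl enzyme, was by far the highest of its class at 317, 334 and 358 in brain metastases, 345, 309, 298 and 291 in SQ and 453, 449.7 and 459.7 in 2D. Brain and subcutaneous tumours overlapped and both lay under culture. IARS2 was 1.46-fold lower in SQ than in 2D (−0.55 ± 0.06, 4.73e-06) and 1.35-fold lower in metastases (−0.43 ± 0.06, 3.09e-05).

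TARS2, the threonyl enzyme, stood at 48.9, 51.9 and 61.9 in brain metastases (lowest, median and highest), 47.3, 41.9, 45.7 and 44.9 in SQ and 60.5, 63.9 and 64.1 in 2D. One metastasis reached the range of culture. Its differences were −0.48 ± 0.07 in SQ against 2D (adjusted p 7.44e-05 in limma) and −0.24 ± 0.07 in metastases against 2D (0.00884). NARS2, the asparaginyl enzyme, had levels of 27.8, 29.8 and 33.0 in brain metastases, 33.8, 29.6, 33.4 and 28 in SQ and 34.0, 36.1 and 35.6 in 2D. It was 1.17-fold lower in metastases than in 2D (−0.23 ± 0.07, 0.0207), a call lost without 2D replicate 2 (0.0881), without 2D replicate 3 (0.0771) and with voom (0.0654). WARS2 and LARS2, the tryptophanyl and leucyl enzymes, were lower in SQ than in 2D by 0.35 and 0.33 on the log2 scale (0.0107 and 0.0121). Both calls were lost under nuclear-gene scaling (0.089 and 0.0781), and that of LARS2 also under quantile scaling (0.0519).

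Of the mitochondrial genes higher in metastases than in 2D, FARS2 and CARS2 had the greatest differences, while against SQ the order was CARS2, YARS2, MARS2 and FARS2. FARS2, the phenylalanyl enzyme, stood at 9.65, 15.8 and 16.6 in brain metastases (lowest, median and highest), 10.4, 10.5, 9.76 and 10.2 in SQ and 9.83, 10.3 and 9.47 in 2D. One forebrain metastasis had a value like culture and the other 5 lay above it. FARS2 was 1.39-fold higher in metastases than in 2D (log2 0.48 ± 0.14, adjusted p 0.014 in limma), and without 2D replicate 3 the call was lost (0.0571). CARS2, the cysteinyl enzyme, was at 61.1, 67.9 and 74.8 in brain metastases, 47.1, 49.0, 44.1 and 51.4 in SQ and 54.0, 53.0 and 50.7 in 2D. Every metastasis stood above every other library, with differences of 0.37 ± 0.07 against 2D (0.000786) and 0.50 ± 0.06 against SQ (2.2e-05).

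MARS2, the methionyl enzyme, which has no introns in its gene, stood at 5.48, 6.45 and 7.41 in brain metastases (lowest, median and highest), 4.54, 4.16, 5.29 and 3.93 in SQ and 4.58, 4.98 and 4.91 in 2D. Metastases lay above both other groups. It was 1.27-fold higher than in 2D (log2 0.35 ± 0.11, adjusted p 0.0198 in limma), a call lost without 2D replicate 1, 2 or 3 (0.088, 0.053 and 0.0578), and 1.36-fold higher than in SQ (0.44 ± 0.10, 0.00224). EARS2, the glutamyl enzyme, averaged 73.9 ± 4.76 in brain metastases, 56.7 ± 3.33 in SQ and 62.7 ± 2.38 in 2D. VARS2, the valyl enzyme, averaged 19.1 ± 2.03 in brain metastases, 16.5 ± 1.45 in SQ and 14.9 ± 0.515 in 2D. Both were higher in metastases than in 2D, by 0.23 ± 0.06 for EARS2 (0.00416) and 0.33 ± 0.09 for VARS2 (0.00904).

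SARS2, the seryl enzyme, was the member that went against its class in SQ. Its levels were 3.49, 5.09 and 8.73 in brain metastases (lowest, median and highest), 7.98, 10.3, 7.87 and 10.4 in SQ and 5.05, 5.72 and 5.78 in 2D. All SQ tumours exceeded all monolayers, and metastases spread widely. SARS2 was 1.55-fold higher in SQ than in 2D (log2 0.63 ± 0.16, adjusted p 0.00399 in limma) and 1.55-fold lower in metastases than in SQ (−0.63 ± 0.13, 0.00128). It rested on as few as 9 reads in a metastasis library.

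HARS2, the mitochondrial histidyl enzyme, is a close paralog of HARS and its neighbour on chromosome 5. The 2 genes are transcribed away from each other from starts 85 bases apart, and their annotations overlap by 108 bases, from 140691430 to 140691537 on hg38. Whether the authors counted by strand is not given in the sources used here, so reads there cannot be told apart. HARS2 stood at 94.3, 107 and 119 in brain metastases (lowest, median and highest), 125, 125, 141 and 141 in SQ and 117, 117 and 118 in 2D. The SQ tumours were above all other libraries. It was 1.24-fold lower in metastases than in SQ (log2 −0.31 ± 0.06, adjusted p 0.00108 in limma). In SQ against 2D the difference of 0.18 ± 0.08 missed the threshold (0.0615) and passed it in 11 of 26 alternatives, among them median-of-ratios (0.0156), nuclear-gene (0.00587) and quantile scaling (0.0071).

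AARS2, PARS2 and RARS2, the alanyl, prolyl and arginyl enzymes, were called in none of the 3 comparisons. AARS2 averaged 13.2 ± 1.73 in brain metastases, 13 ± 0.983 in SQ and 12.7 ± 0.510 in 2D. PARS2 had the lowest level of the class in 2D, at 2.53 ± 0.288, with 2.97 ± 0.801 in brain metastases and 2.27 ± 0.170 in SQ. RARS2 averaged 59.1 ± 7.46 in brain metastases, 58.1 ± 4.86 in SQ and 63.3 ± 0.268 in 2D.

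The order of levels between genes depends on the divisor. The length used by the authors equalled the median length of the gene's annotated GENCODE 44 transcripts within 1 base for 20 of 36 genes, and in 27 of 36 it was under 0.5 of the canonical transcript. On the deposited scale AARS was the highest gene in 2D (709), followed by IARS (572), TARS (562) and KARS (544), and CARS was the only cytosolic gene under 20 (13.1). With canonical lengths KARS came first in 2D (228), followed by TARS (159), GARS (153) and AARS (126). Within a gene the divisor is the same in every library.

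Setting each cytosolic gene against its mitochondrial partner within a library removes what scales both alike. Over 16 pairs, with EPRS paired to both EARS2 and PARS2, the ratio in every SQ tumour was under that of every monolayer for 15 pairs and above it for 0; RARS/RARS2 was the exception. In brain metastases 10 pairs were under 2D without overlap and 0 above. Metastases were above SQ without overlap for 5 pairs (AARS, IARS, NARS, SARS, TARS) and below for 0. On the scale of log2 ratios of levels, SARS/SARS2 averaged 3.54 in brain metastases, 2.58 in SQ and 4.39 in 2D. MARS/MARS2 averaged 5.21 in brain metastases, 5.49 in SQ and 6.48 in 2D, and CARS/CARS2 averaged −3.07 in brain metastases, −3.33 in SQ and −2.01 in 2D. IARS and IARS2 are of similar level, and their ratio averaged 0.16 in brain metastases, −0.25 in SQ and 0.33 in 2D, so that SQ was the only group with more IARS2 than IARS on the deposited scale. These ratios were not tested, and no share over other pairs of genes was computed. In SQ against 2D all 20 cytosolic genes were already lower without overlap, so the pair counts are not separate evidence.

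**Figure D4:**
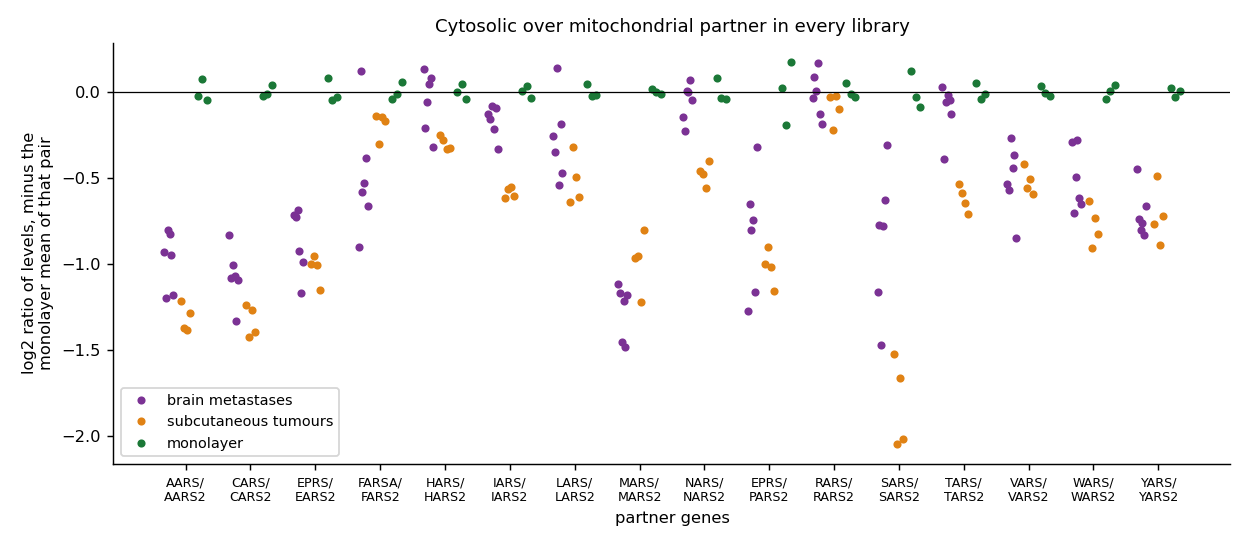
Log2 ratio of the cytosolic to the mitochondrial partner in every library, minus the 2D mean of that pair, for 16 pairs. SQ tumours lie under the monolayers in 15 pairs and brain metastases in 10 pairs.

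Few synthetase genes were called between forebrain and hindbrain metastases. QARS was the 1 cytosolic gene called (limma), with 321, 315 and 301 in FBMet and 291, 245 and 258 in HBMet, while 3.3% of all genes were called and 1.85% were called higher. Those 481 genes rest on a spread pooled over all 4 groups: 30 were called when only the groups compared were fitted, 58 with library weights and 100 with voom. All FBMet values lay above all HBMet values. QARS was 1.18-fold higher in FBMet (log2 0.24 ± 0.06, adjusted p 0.0499), just inside the threshold, and kept its call in 6 of 25 alternatives, with adjusted p from 0.0132 to 0.325. At an unadjusted p under 0.05 in limma, 6 of 20 cytosolic genes were higher in FBMet and 0 lower. Of the 20 differences, 17 were positive and 3 negative. The share of all genes at that unadjusted threshold is not given here. No mitochondrial gene was called (0 of 16), with 2 at an unadjusted p under 0.05 (1 higher, 1 lower in FBMet) and 0 with voom. SARS2 came nearest, with 7.30, 5.18 and 8.73 in FBMet and 4.99, 4.55 and 3.49 in HBMet. Its groups did not overlap, and its difference of 0.58 ± 0.17 had an adjusted p of 0.0739, or 0.0306 without FBMet replicate 2. In 5 cytosolic and 1 mitochondrial gene all FBMet values lay above all HBMet values, against 9.07% of all genes, and in 1 mitochondrial gene below them, against 6.57%. The median log2 difference was 0.09 over cytosolic and 0.05 over mitochondrial genes, beside 0.02 over all genes. In the lists of genes that work beside the synthetases, AIMP2 was higher (0.28) and TRIB3, an ATF4 target, lower (−0.63) in FBMet than in HBMet. TRIB3 was the 1 gene called of 19 tested in the ATF4 list, and it went against most of that list. There 16 differences were positive and 3 negative, with a median of 0.21. Neither call was followed through the alternatives.

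The 8 cytosolic genes with the TGATGNAA letters, NARS included, differed more in the median between brain, skin and culture than those without. This is a description with no test. In SQ against 2D the 8 genes with the motif had a median log2 difference of −1.21, from −1.88 to −0.65, and all 8 were called lower. The 12 without it had a median of −0.41, from −1.17 to −0.11, and 10 were called lower. In brain metastases against 2D the medians were −0.74 with the motif (8 of 8 lower) and −0.17 without (5 of 12 lower). In metastases against SQ they were 0.51 with (8 of 8 higher) and 0.23 without (9 of 12 higher). FBMet against HBMet showed no such order, with a median of 0.07 with the motif (0 called) and 0.10 without (1 called). The division was not complete, since EPRS, WARS and SARS had no match in this window and fell by 1.17, 1.14 and 1.08 on the log2 scale in SQ against 2D. In a window of 1000 bases on each side of the start, added after the data were seen, matches were found for 11 of 20 cytosolic (55.0%), 6 of 16 mitochondrial (37.5%) and 3758 of 20046 protein-coding genes (18.7%). The 3 cytosolic genes gained in that window were EPRS, WARS and HARS.

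**Figure D5:**
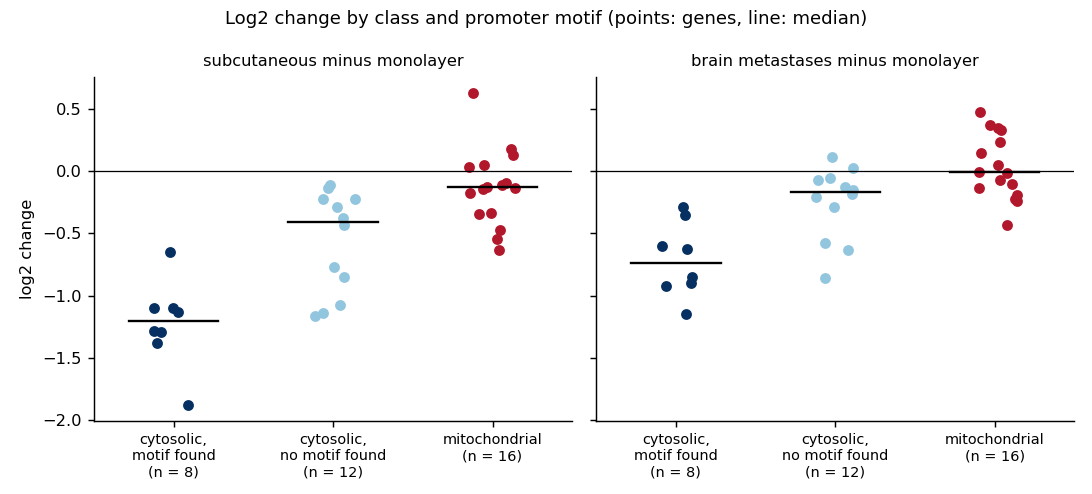
Log2 difference of each gene in SQ against 2D and in brain metastases against 2D, for cytosolic genes with and without the promoter motif and for mitochondrial genes, with medians as lines. In the first panel the medians are −1.21, −0.41 and −0.13.

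In mammalian cells 8 cytosolic members (EPRS, IARS, LARS, MARS, QARS, RARS, KARS, DARS) sit together in the multi-synthetase complex, a grouping added after the values were seen. In SQ against 2D all 8 were called lower, with a median log2 difference of −0.64 and a range of −1.17 to −0.22. Under nuclear-gene and quantile scaling the calls of DARS, QARS and RARS were lost, and under quantile scaling that of KARS too. The 12 outside the complex had a median of −1.09, and 10 were called lower, where 30.9% of all genes were. In metastases against 2D, 4 of 8 inside (median −0.21) and 9 of 12 outside (median −0.46) were called lower, against 21% of all genes. In metastases against SQ the sets were alike, with 7 of 8 inside (median 0.39) and 10 of 12 outside (median 0.42) called higher, against 31.2% of all genes. Among the 3 scaffold proteins of the complex, EEF1E1 was lower in SQ than in 2D (log2 −0.63) and AIMP2 was higher in metastases than in 2D (0.43) and than in SQ (0.51). AIMP1 was not called.

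Of the genes acting next to the mitochondrial enzymes, those that modify charged tRNA were higher in the brain than under the skin. GATB, GATC and QRSL1 form the amidotransferase that makes mitochondrial glutaminyl-tRNA, and MTFMT formylates the initiator. All 4 were higher in metastases than in SQ, with log2 differences of 0.49 for GATB, 0.32 for GATC, 0.29 for MTFMT and 0.19 for QRSL1, where 31.2% of all genes were called higher. In SQ against 2D, MTFMT (−0.39) and QRSL1 (−0.37) were lower and 0 of 4 higher. The shares of all genes there were 30.9% lower and 21.5% higher. In metastases against 2D, 2 of 4 were higher and 0 lower, against 21.9% and 21% of all genes. Of 9 mitochondrial translation factors, 4 were lower and 1 higher in SQ against 2D, 1 lower and 3 higher in metastases against 2D, and 0 lower and 4 higher in metastases against SQ. The shares of all genes were 30.9% lower and 21.5% higher in SQ against 2D, 21% and 21.9% in metastases against 2D and 18.8% and 31.2% in metastases against SQ, so that these counts lay near the background. MTIF2, the initiation factor, differed by −0.52 in SQ against 2D and −0.28 in metastases against 2D.

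In the cytosol, 3 of 4 tested elongation factors were lower in SQ than in 2D, where 30.9% of all genes were, and EEF2, which moves the ribosome along the mRNA, was lower both in SQ (log2 −0.70) and in metastases (−0.60). XPOT, which exports tRNA from the nucleus, followed the direction of the cytosolic set. Its level was 221, 250.3 and 261 in brain metastases (lowest, median and highest), 145, 139, 133 and 128 in SQ and 358, 333 and 345 in 2D. The groups did not overlap, and XPOT differed by −1.34 in SQ against 2D, −0.49 in metastases against 2D and 0.85 in metastases against SQ. AARSD1, an alanyl-tRNA editing protein, went the other way, by 1.19 in SQ against 2D and −0.90 in metastases against SQ. It had only 45 reads in the metastases together, with 2 in the lowest library. Its metastasis levels (0.69 to 4.18) overlapped those of SQ (3.26 to 5.25). Of the 8 genes for tRNA editing, repair and export, 3 were lower and 1 higher in SQ against 2D, near the shares of all genes (30.9% and 21.5%).

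ATF4 and 18 of its targets were tested as a list, and the list was drawn up with results of these data known. In SQ against 2D, 12 of 19 were lower and 1 (SLC7A11) higher, with a median log2 difference of −1.03, where 30.9% of all genes were lower and 21.5% higher. In metastases against 2D, 15 were lower and 0 higher (median −0.85; 0 higher also at an unadjusted p under 0.05), against 21% and 21.9% of all genes. In metastases against SQ, 10 were higher and 4 lower (median 0.41), against 31.2% and 18.8%. ASNS, asparagine synthetase, stood at 35.6, 44.3 and 50.7 in brain metastases (lowest, median and highest), 25.6, 20.6, 19.9 and 17.7 in SQ and 192, 188 and 183 in 2D. PHGDH, the first enzyme of serine synthesis, stood at 13.8, 26.1 and 28.1 in brain metastases, 5.55, 5.04, 3.5 and 4.43 in SQ and 105.5, 108.6 and 101.5 in 2D. Both were lowest under the skin and highest in culture, by −3.11 and −4.25 in SQ against 2D. ATF4 mRNA itself differed by −0.83 in SQ against 2D, −0.38 in metastases against 2D and 0.46 in metastases against SQ. Its protein was not measured.

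Of 8 genes for eIF2 kinases, their regulators and phosphatases, 5 were lower and 0 higher in SQ against 2D, and 5 were lower and 2 higher in metastases against 2D. Of all genes 30.9% were lower and 21.5% higher in SQ against 2D, and 21% were lower and 21.9% higher in metastases against 2D. EIF2AK4, which encodes GCN2, differed by −0.56 in SQ against 2D, −0.24 in metastases against 2D and 0.33 in metastases against SQ. Of 6 tested interferon gamma targets beside WARS, 5 were lower and 1 higher in SQ against 2D, and 5 were lower and 0 higher in metastases against 2D, beside those same shares of all genes. In metastases against SQ, 2 were higher and 2 lower (median 0.16), where 31.2% and 18.8% of all genes were. GBP1 differed by −1.81 in SQ against 2D and −0.91 in metastases against 2D, and IRF1 by 0.63 in SQ against 2D and −0.45 in metastases against 2D. Outside FBMet against HBMet, a limma count of 0 in one of these surrounding lists was mostly also 0 at an unadjusted p under 0.05. The exceptions were 1 gene of the eIF2 list higher in SQ than in 2D and 1 mitochondrial translation factor lower in metastases than in SQ. To these comes 1 gene of the amidotransferase and formylation list, lower in metastases than in 2D.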

How the data were processed

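RNA-seq libraries were deposited as 1 human and 1 mouse table of RPKM values made by the authors. Reads were mapped to hg38 (GRCh38) and mm10 (GRCm38), per the submitters' processing notes; for the aligner, counter and annotation version, names were not given in the sources used here. Each human gene's RPKM values in the 21 libraries were whole multiples of 1 read within a tolerance of 0.02 (100.0% of 33975 genes above 0), which gave the depths. Column names match the sample descriptions in the labels.

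RPKM was rescaled to 1000000 per library, taken as log2(value + 1) and tested with limma 3.58.1 in R 4.3.3 (trend, robust) in 1 fit of the 13 cancer-cell libraries. Genes at 1 or more in at least 3 libraries were tested (14557), with Benjamini-Hochberg adjustment over all of them and a call at an adjusted p under 0.05. A fold on this scale understates the change of low genes. Brain metastases are the mean of the FBMet and HBMet means. The fit was tested on simulated reads at these depths, where it recovered nearly all changed genes but also made some calls between FBMet and HBMet, which had been given no difference. Lists were described by counts and medians. Genes given by library were, in each comparison, the 6 cytosolic and 4 mitochondrial members called with the greatest difference, members called against their class, and GARS, KARS, EPRS, QARS, WARS, HARS and HARS2; of each surrounding list at most 3 called genes were named, with ATF4, SLC7A11 and AIMP1 added after their values were seen. The members and lists were chosen with earlier results of these data known. Alternatives were pseudocounts of 0.1 and 0.5, no filter, a minimum of 5, 3 other scalings, library weights, voom on the recovered reads, subtraction of mouse-expected reads, a fit of only the groups compared, metastases averaged by number, the replicate block, and each library left out. Promoters were read from hg38 with GENCODE 44. EEF1G was not analysed here.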

Additional observations from a re-analysis of the deposited data

Results flagged for a closer look

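WARS2, the mitochondrial tryptophanyl-tRNA synthetase, had 1 of 4 SQ tumours away from the others. SQ replicate 2 stood at 15.7, while the other 3 lay between 13.1 and 13.3. The gap to the nearest tumour made up 0.896 of the range of the group. This check was run on 36 genes in SQ, the 1 group with at least 4 libraries, and chance marks about 1 in 20 groups. The 2D libraries stood at 18.2, 18.0 and 17.3, above all 4 tumours.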

How the results depend on the processing

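Over 26 alternatives, 25 for FBMet against HBMet, no called difference changed sign. Of 3704 values of single genes, 3522 kept their direction and their side of the threshold, 56 gained a call, 53 lost one, and 73, called in neither fit, changed sign (38 of them in FBMet against HBMet). The mitochondrial median in brain metastases against 2D ran from −0.04 to 0.02. Cytosolic genes called numbered 14 to 20 in SQ against 2D, 12 to 16 in brain metastases against 2D and 15 to 18 in brain metastases against SQ. Library weights raised the mitochondrial calls in SQ against 2D to 11, against 6. The single cytosolic call between FBMet and HBMet, QARS, was lost (0 called) with a pseudocount of 0.1, no filter, median-of-ratios scaling, quantile normalization, only the groups compared, library weights and voom. Leaving out each library in turn gave 0 to 1 cytosolic and 0 to 1 mitochondrial calls there, and 5 to 9 mitochondrial calls in brain metastases against 2D, the 5 without 2D replicate 3. Called higher in brain metastases than in SQ but not under median-of-ratios, nuclear-gene or quantile scaling were VARS, TARS2 and WARS2, beside QARS.

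Replicate numbers did not meet the bar for pairing libraries, a correlation over 0.1 in every pair: deviations from group means correlated at −0.283 to 0.109 between libraries of one number and at −0.251 to 0.338 between others. Between FBMet and HBMet the 3 same-number pairs (0.0441 to 0.0662) exceeded the 6 others (−0.0555 to 0.0107), a hint from the data, and whether they share a mouse is not in the labels. Averaged by number, metastases gave 13 cytosolic and 8 mitochondrial calls against 2D and 18 and 11 against SQ. With the replicate block the calls were 18 cytosolic and 6 mitochondrial in SQ against 2D, 13 and 8 in brain metastases against 2D, 17 and 11 in brain metastases against SQ and 0 and 0 in FBMet against HBMet. The average of metastases by number gives no value for FBMet against HBMet. The causes of these shifts were not tested. Depth limits the metastases, where SARS2 had as few as 9 reads, PARS2 17, FARS2 52 and WARS2 57.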
